A study of Caenorhabditis elegans with 2 samples.

Results

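The heterochronic genes of Caenorhabditis elegans set the order in which larval cell fates follow each other, so that each larval stage has its own pattern of divisions and the last moult ends in adult tissue. Early regulators such as lin-14 and lin-28 are switched off in turn by microRNAs, and the late regulators lin-41 and lin-29 then decide when the skin becomes adult. At the L4 stage the let-7 microRNA is known to be abundant and lin-29 to act in the skin. 10 genes of this pathway were examined, out of 19973 protein-coding genes: lin-14, lin-28, hbl-1, lin-46, lin-66, nhl-2, lin-41, lin-29, lin-42 and daf-12. They are a list of names with a known role in larval timing, drawn up when earlier results of these data were known.

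Chromatin immunoprecipitation with sequencing was carried out on whole L4 larvae, aged 47 hours, of strain RW12267. In this strain a CRISPR insertion at the native vab-7 locus on chromosome III, st12267[vab-7::TY1::EGFP::3xFLAG], tags the protein VAB-7, a homeodomain transcription factor of the Even-skipped class known for posterior patterning and for DB motor neuron identity. The animals had been synchronised by bleaching and starvation at L1, chromatin was sonicated to 200 to 800 bp, and an anti-GFP antibody was used. The 2 biological replicates form 1 group and allow no comparison of conditions, and a control named in the labels was not analysed here. Whether a peak depends on the tagged protein was therefore not tested. In whole animals, strong occupancy in few cells and weak occupancy in many cannot be told apart.

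For each gene, a window ran from 5 kb upstream of the annotated 5′ end to the gene end, and the summits in it were taken from the authors' peak lists on the ce11 build. The list for the series held 1815 peaks above the authors' threshold and is called the series list. A conservative list held 1732, the list of replicate 1 held 1014 and that of replicate 2 held 1119. Unthresholded ranked lists held 88007 peaks for both replicates pooled, 69586 for replicate 1 and 48662 for replicate 2. Each peak carries a signal, which is the authors' peak caller's value with no stated normalization, and a score, a rescaled irreproducible discovery rate (IDR) that ends at 1000. The lowest score in the series list was 830, which corresponds to an IDR of 0.01. Signals are read here only within 1 list. No read counts accompany the lists, so the depth behind each peak is unknown.

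Of the 10 genes, 6 had at least 1 summit of the series list in the window: lin-14, lin-28, lin-42, lin-46, lin-66 and nhl-2. Over all protein-coding genes 2534 of 19973, or 12.7%, had one in a window made the same way. Longer windows hold more summits, and the windows of the 10 genes ran from 6.9 kb for lin-46 to 36 kb for daf-12. Among genes with windows under 10 kb the share was 11.1%, and both such members, lin-28 and lin-46, had a summit. Among windows of 10 to 20 kb it was 20.3%, and 2 of 4 members had one. Among windows of 20 kb or more it was 27.0%, and again 2 of 4 members had one. The members thus lay above the share for all genes in each length class, with 2 to 4 genes in a class and no test made.

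**Figure D1:**
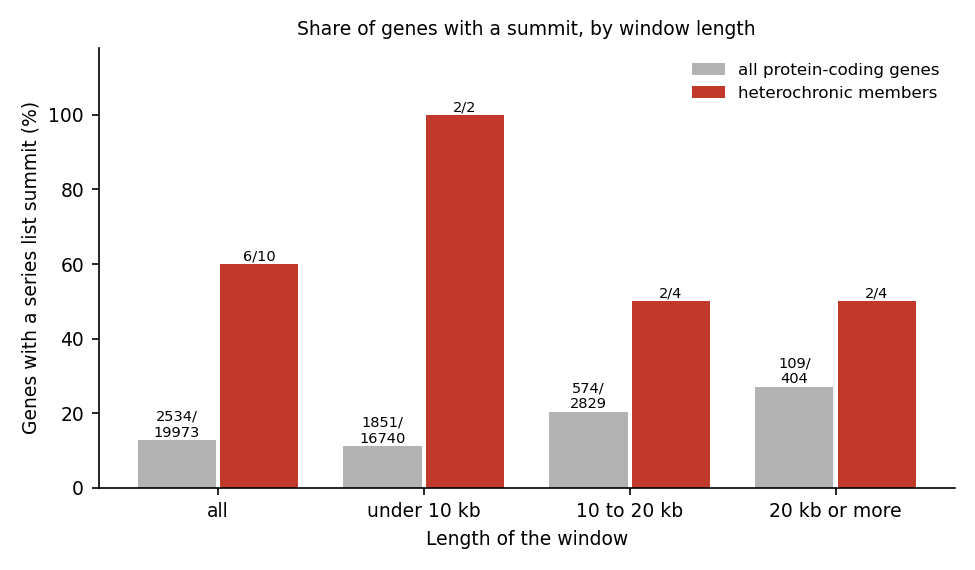
Share of genes (%, vertical axis) with at least 1 series list summit, by window length (horizontal axis), for all protein-coding genes in grey and the 10 heterochronic genes in red, with the counts above each bar. The red bars stand on 2 to 10 genes each, and the grey bars rise from 11.1% to 27.0% with window length.

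The conservative list gave 5 of the 10 genes, compared with 12.3% of all genes, since lin-14 had no summit in it. The list of replicate 1 gave 4 of 10 (lin-14, lin-42, lin-66 and nhl-2), compared with 7.72% of all genes. The list of replicate 2 also gave 4 of 10 (lin-14, lin-46, lin-66 and nhl-2), compared with 8.59%. The shares for the conservative and replicate lists were not split by window length. The windows of the members were longer, with a median of 11.8 kb compared with 7.03 kb over all protein-coding genes. Only lin-14, lin-66 and nhl-2 were found in the thresholded lists of both replicates, and at lin-14 the replicates' peaks lay at different places. Within 1000 bp of the annotated 5′ end, 4 of the 10 genes had a series list summit (lin-28, lin-46, lin-66 and nhl-2), compared with 5.50% of all genes.

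The 6 genes held 10 series list summits. lin-42 had 3, a number reached by 106 of the 19973 genes (0.531%) and by 11 of the 404 genes whose windows, like its own, spanned 20 kb or more (2.72%). lin-14 and lin-28 had 2 each. At least 2 were found at 7.92% of genes with windows of 20 kb or more, as at lin-14, and at 2.25% of those under 10 kb, as at lin-28. The peaks at lin-14 overlapped each other, so the 10 peaks covered 9 separate regions. By place relative to coding genes, 4 summits lay upstream of their gene and outside any coding gene, 5 in introns and 1 in a coding exon. An exon of any transcript took precedence over an intron of another. The nhl-2 summit also lay inside the annotated non-coding RNA gene F26F4.14, and the lin-42 summit at 5381 bp inside F47F6.13, another one. None lay within 200 bp of an annotated tRNA, snoRNA, snRNA or rRNA gene, called small RNA genes here. The nearest such gene was 10867 bp away, at lin-14. MicroRNA genes and other short RNA genes were not part of this distance search.

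**Figure D2:**
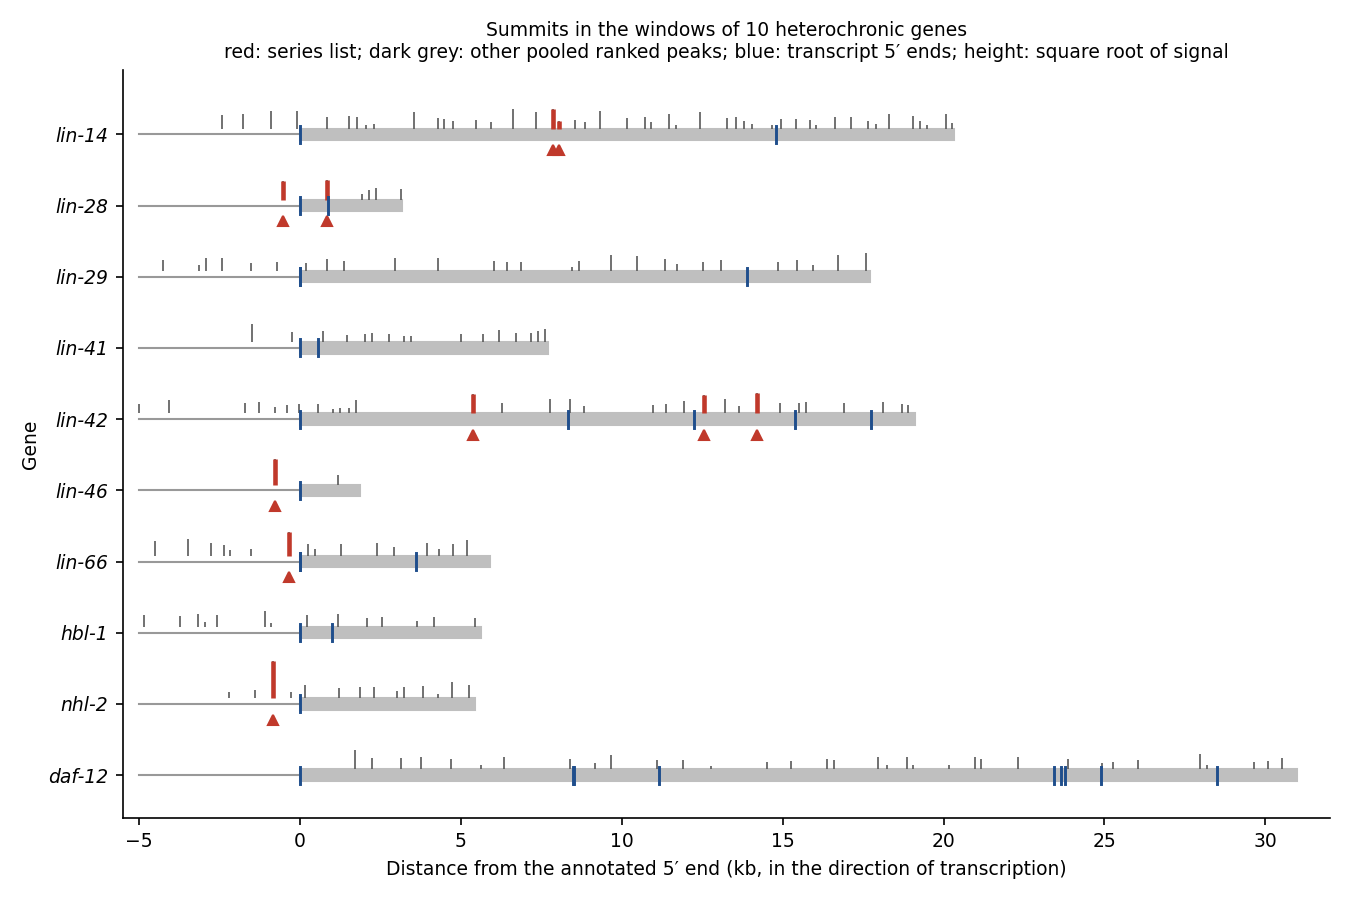
Summits in the window of each of the 10 genes (rows), by distance from the annotated 5′ end in kb (horizontal axis). Grey bars are gene bodies, blue ticks 5′ ends of coding transcripts, red lines with triangles the 10 series list summits, thin dark lines the other pooled ranked summits, and line height is the square root of the signal. Red marks sit upstream of nhl-2, lin-46 and lin-66, inside lin-14 and lin-42, and on both sides of the 5′ end of lin-28, and 4 rows have none.

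The sequence at the summits is shown for lin-14, lin-42, lin-46, lin-66 and nhl-2, whose results are described after it, and for the strongest peak of daf-12, which fell just short of the threshold. Each line is the summit base with 50 bases on either side, on the plus strand of ce11, from the RefSeq copy of the assembly WBcel235. Capitals mark searched words on either strand. TAATTA and TAATGA are sites known to be bound by homeodomains such as that of Even-skipped. The others are the repeats GAGAGA and GCGCGC, and CGCAGAG. The last was added after these sequences had been read, so its count supports nothing. lin-42 and nhl-2 lie on the minus strand, and their sequences are shown on the plus strand too.
nhl-2, 827 bp upstream, chrIII:4899862-4899962: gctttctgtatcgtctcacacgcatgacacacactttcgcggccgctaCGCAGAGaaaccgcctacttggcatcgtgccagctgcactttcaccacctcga
lin-46, 788 bp upstream, chrV:12968017-12968117: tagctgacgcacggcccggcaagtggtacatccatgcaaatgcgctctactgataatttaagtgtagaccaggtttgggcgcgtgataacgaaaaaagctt
lin-66, 344 bp upstream, chrIV:13887685-13887785: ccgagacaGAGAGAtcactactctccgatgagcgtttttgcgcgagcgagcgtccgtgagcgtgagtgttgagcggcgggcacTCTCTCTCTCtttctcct
lin-14, 7862 bp downstream, chrX:11473372-11473472: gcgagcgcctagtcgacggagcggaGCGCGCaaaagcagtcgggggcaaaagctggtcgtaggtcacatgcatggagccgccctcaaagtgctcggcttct
lin-42, 5381 bp downstream, chrII:1246928-1247028: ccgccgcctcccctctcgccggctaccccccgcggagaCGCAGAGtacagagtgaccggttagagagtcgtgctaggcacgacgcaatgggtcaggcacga
lin-42, 12555 bp downstream, chrII:1239754-1239854: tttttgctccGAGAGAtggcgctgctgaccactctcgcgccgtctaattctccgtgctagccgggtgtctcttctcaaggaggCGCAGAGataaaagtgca
lin-42, 14196 bp downstream, chrII:1238113-1238213: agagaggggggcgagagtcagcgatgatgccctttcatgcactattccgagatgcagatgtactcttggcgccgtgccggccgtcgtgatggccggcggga
daf-12, 1720 bp downstream, chrX:10637578-10637678: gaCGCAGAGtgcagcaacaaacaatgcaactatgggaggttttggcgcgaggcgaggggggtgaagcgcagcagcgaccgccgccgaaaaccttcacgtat

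Neither searched homeodomain word, TAATTA or TAATGA, was present in any of the 10 member windows. The shorter word TAAT was not searched, and it can be read in the printed windows of lin-46 and of lin-42 at 12555 bp. Over the series list 78 of 1815 windows (4.30%) held TAATTA or TAATGA, so none among 10 is near that share. The absence says only that these letters are not in these windows. GAGAGA was found at 3 of the 10 summits (lin-28, lin-42 and lin-66), compared with 16.5% of the series list, and it occurred at 4 positions in the lin-66 window, some of them overlapping in 1 run of the reverse complement. GCGCGC was found at 1 summit, in lin-14, compared with 8.98%. CGCAGAG was found at 3 summits, those of nhl-2 and of lin-42 at 5381 and 12555 bp, and also stood at the daf-12 summit. It was picked from these same windows, so its count there cannot be compared with its 4.02% of the series list. Over the 86192 pooled ranked peaks outside the series list, GAGAGA was found at 6.41%, GCGCGC at 1.28% and CGCAGAG at 1.05%.

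The GC content of the 10 windows had a median of 55.9% and ran from 36.6% to 67.3%, compared with a median of 50.5% over the series list and 40.6% over the other pooled ranked peaks. The highest value was at lin-42, 5381 bp downstream, and exceeded 99.1% of series list summits. The lowest was at lin-28, 529 bp upstream. The lin-66 window had 58.4% and the lin-46 window 48.5%. Of the 10 windows, 6 were at or above the upper quartile of the series list, 55.4%.

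lin-14 encodes a nuclear protein that specifies first-stage fates and is the classic target of the lin-4 microRNA. The gene lies on chromosome X from 11465560 to 11485871, on the plus strand. Its strongest series list peak, from 11473270 to 11473573, had its summit 7862 bp downstream of the 5′ end, in intron 3 of 11 of transcript T25C12.1a.1. The 5′ end of the shorter transcript T25C12.1b.1 lay another 6939 bp downstream. The peak had a signal of 86.4 and a score of 910, and ranked 1275 of 1815.

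The replicates did not place lin-14 alike. At this summit replicate 2 had a thresholded peak with a signal of 49.5 and a score of 1000. In the ranked list of replicate 1 the same place had a signal of 35.3 and a score of 137. The thresholded peak of replicate 1 lay instead 6646 bp downstream of the 5′ end, from 11472061 to 11472350, with a signal of 52.0 and a score of 983. At that place replicate 2 had a ranked peak with a signal of 25.9 and a score of 15. Intron 3 therefore held both thresholded peaks, about a kilobase apart, and each had a low score in the other replicate. The signals there were not low, at percentile 91.4 of the ranked list of replicate 1 and 90.7 of that of replicate 2. In the pooled ranked list, the peak at the replicate 1 place (summit at 6631 bp) had a signal of 86.6 and a score of 83.

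A further lin-14 peak of the series list, from 11473474 to 11473777, overlapped the first, and its signal of 11.7 ranked 1780 of 1815. Of the 35 series list peaks with a signal this low or lower, 34 were the weaker of a pair of overlapping peaks. Neither lin-14 peak was in the conservative list. The lin-14 window held 47 pooled ranked peaks, or 1.86 per kb, more than in 97.1% of protein-coding genes.

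lin-28 encodes an RNA-binding protein of second-stage fates that blocks the maturation of let-7. The gene, on the minus strand of chromosome I from 8407630 to 8410804, is described without sequence. The peak from 8409815 to 8410118 had its summit 837 bp downstream of the 5′ end, in intron 1 of 2 of F02E9.2a.1 and 47 bp upstream of the start of the shorter transcript F02E9.2b.1. Its signal was 91.5 and its score 922, and it was in the conservative list with a score of 853. In the ranked lists it had a signal of 59.1 and a score of 584 in replicate 1 and a signal of 26.2 and a score of 87 in replicate 2. It passed the threshold over both replicates and in neither alone.

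The other lin-28 peak, from 8411181 to 8411484, lay 529 bp upstream of the 5′ end in intergenic sequence. It had a signal of 78.8 and a score of 1000, and was absent from the conservative list. Replicate 1 gave a signal of 36.8 and a score of 238, and replicate 2 a signal of 37.6 and a score of 769. At lin-28, then, replicate 1 had the higher score at the inner summit and replicate 2 at the outer one. The inner summit fell in the windows of 3 coding genes. The outer one fell in those of 2 and lay 1089 bp upstream of the divergent gene F02E9.7. For both summits the nearest coding 5′ end was that of lin-28.

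hbl-1 encodes a zinc finger protein related to Drosophila Hunchback that holds back later fates. The gene (chromosome X, 5822142 to 5827755, plus strand) had no summit in any thresholded list. Its strongest pooled ranked peak, 1082 bp upstream of the 5′ end, had a signal of 60.8 and a score of 349. In replicate 1 the overlapping peak, with its summit 936 bp upstream, had a signal of 38.5 and a score of 139. In replicate 2 the summit lay 1053 bp upstream, with a signal of 31.3 and a score of 100. 3867 pooled ranked peaks below the threshold had a score at least as high, so such a peak is common.

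lin-46 encodes a protein related to the gephyrin scaffold that acts downstream of lin-28. Its position is chromosome V, 12968855 to 12970730, on the plus strand. Its peak, from 12967915 to 12968218, had a signal of 149.8, a score of 1000 and rank 505 of 1815, and was in the conservative list. Replicate 2 passed its own threshold with a signal of 81.9 and a score of 1000, and the ranked peak of replicate 1 had a signal of 66.9 and a score of 624. The summit was 788 bp upstream of lin-46 but only 85 bp upstream of R186.8, a gene that runs the other way. It fell in the windows of 5 coding genes, so the peak cannot be assigned to lin-46 from its place. This window held 2 pooled ranked peaks, or 0.291 per kb, the lowest density of the 10 genes.

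lin-66 is known to lower LIN-28 production. The gene is on the plus strand of chromosome IV, from 13888079 to 13893986. Its peak, from 13887583 to 13887886, had its summit 344 bp upstream of the 5′ end, with a signal of 133 (rank 604) and a score of 1000. The thresholded list of replicate 1 had a signal of 82.0 and a score of 1000, and that of replicate 2 a signal of 50.8 and a score of 1000. This was the only one of the 10 summits that lay within 500 bp of an annotated gene 5′ end of its own member, and no other coding gene had it in its window.

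nhl-2 encodes a TRIM-NHL protein that works with the microRNA silencing complex. It lies on chromosome III from 4893658 to 4899085, on the minus strand. Its peak, from 4899836 to 4900031, had the highest signal of the 10, at 313, with a score of 1000 and rank 56 of 1815. The signal was 188 in replicate 1, where the peak ranked 33 of 1014, and 122 in replicate 2, where it ranked 109 of 1119, and both scores were 1000. The summit was 827 bp upstream of nhl-2 and 596 bp upstream of the divergent gene tag-340, so it was nearer to the neighbour.

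**Figure D3:**
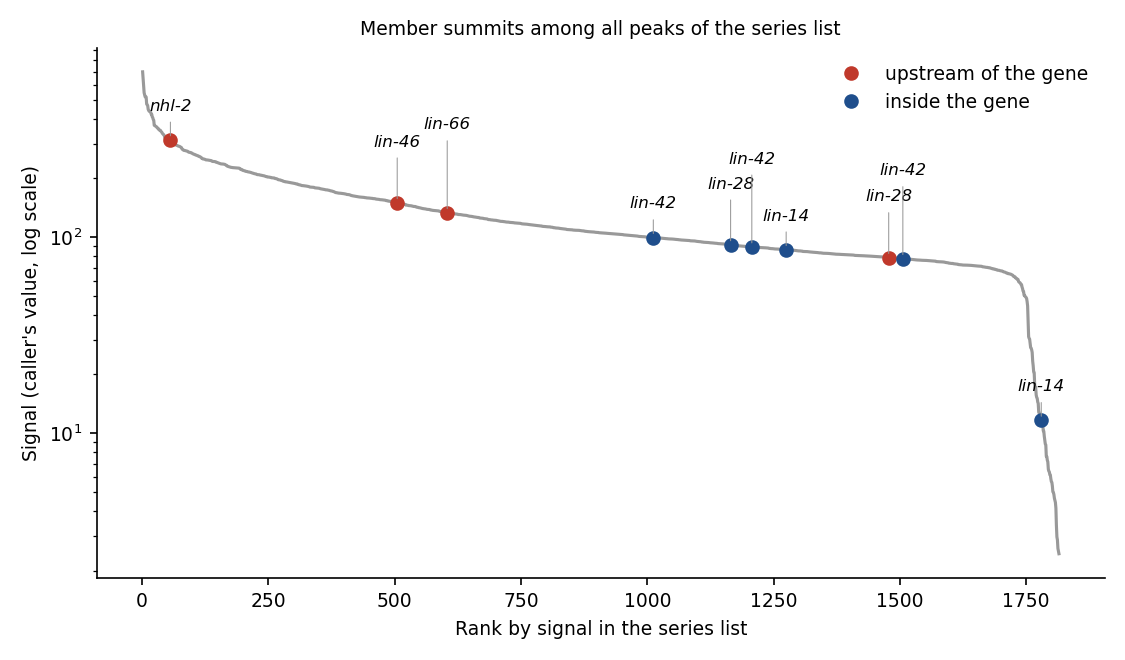
Signal of the 1815 series list peaks (vertical axis, log scale, the authors' caller's value) by rank (horizontal axis), with the 10 member summits marked, red where upstream of the gene and blue where inside it. nhl-2, lin-46 and lin-66 rank 56, 505 and 604, and the remaining 7 rank 1012 or lower, down to 1780 for the weaker lin-14 peak.

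lin-41 encodes a TRIM-NHL RNA-binding protein and is a main target of let-7. The gene (chromosome I, 9334800 to 9342496, minus strand) had no thresholded summit, and its best pooled ranked peak lay 1495 bp upstream of the 5′ end with a signal of 72.3 and a score of 796. Replicate 1 gave a signal of 36.5 and a score of 199, and replicate 2 a signal of 38.4 and a score of 382. The pooled score corresponds to an IDR of 0.0121, just outside the threshold.

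lin-29 encodes a zinc finger transcription factor of the larval-to-adult switch. The gene (chromosome II, 11917642 to 11935343, minus strand) had no thresholded summit. Its highest pooled score, 674, belonged to a peak in an intron near the 3′ end, 16707 bp from the 5′ end, with a signal of 62.2. The ranked lists gave a signal of 44.5 and a score of 195 in replicate 1 and a signal of 18.5 and a score of 142 in replicate 2. That summit was nearer to the 5′ end of hmg-12 than to that of lin-29. The strongest pooled signal, 72.0 with a score of 335, was at 17576 bp, in the 3′ untranslated region, with a signal of 56.3 and a score of 321 in replicate 1 and 27.7 and 218 in replicate 2.

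lin-42 encodes the nematode relative of the clock protein Period and is expressed in step with the moults. It lies on chromosome II from 1233236 to 1252359, on the minus strand, and has 5 annotated coding transcript starts. All 3 of its series list summits were inside the gene. The peak from 1238011 to 1238314, 14196 bp downstream of the 5′ end in an intron, had a signal of 99.6 and a score of 1000. Replicate 1 passed its threshold there with a signal of 61.1 and a score of 921, and replicate 2 had a ranked signal of 32.4 and a score of 263. It lay 1194 bp upstream of the start of F47F6.1a.

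The peak of lin-42 from 1246826 to 1247129, 5381 bp downstream in intron 1 of F47F6.1d and F47F6.1f, had a signal of 89.2 and a score of 1000. The ranked lists gave a signal of 54.5 and a score of 691 in replicate 1 and a signal of 37.1 and a score of 539 in replicate 2. The peak from 1239652 to 1239955, 12555 bp downstream, lay in a coding exon of 2 transcripts, F47F6.1c and F47F6.1f. It lay in introns of F47F6.1b, F47F6.1d and F47F6.1e, 297 bp past the start of F47F6.1e. Its signal was 77.8 and its score 903, with a signal of 52.4 and a score of 593 in replicate 1 and 24.9 and 249 in replicate 2. This peak was missing from the conservative list, which held the other two. In all 3 places replicate 1 had the higher score within its own ranked list.

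daf-12 encodes a nuclear hormone receptor that couples steroid hormone to the choice between reproductive growth and the dauer larva. It lies on chromosome X from 10635908 to 10666875, on the plus strand, and its window was the longest of the 10. It had no thresholded summit. Its best pooled ranked peak, 1720 bp downstream of the 5′ end in an intron, had a signal of 83.2 and a score of 804, an IDR of 0.0116. The overlapping peak of replicate 1 had a signal of 58.2 and a score of 69. Replicate 2 had 2 overlapping peaks, 1 with its summit at 1756 bp, a signal of 17.9 and a score of 33, and 1 at 1534 bp, with 23.9 and 217. All of these replicate scores at daf-12 were far under the threshold.

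At the threshold, the lowest member scores inside it were 903 at lin-42 and 909 at lin-14. The highest outside it were 804 at daf-12 and 796 at lin-41. Of the pooled ranked peaks under 830, 89 scored 804 or more and 117 scored 796 or more. These 2 genes were thus close to the threshold, and lin-29 and hbl-1 were farther from it.

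**Figure D4:**
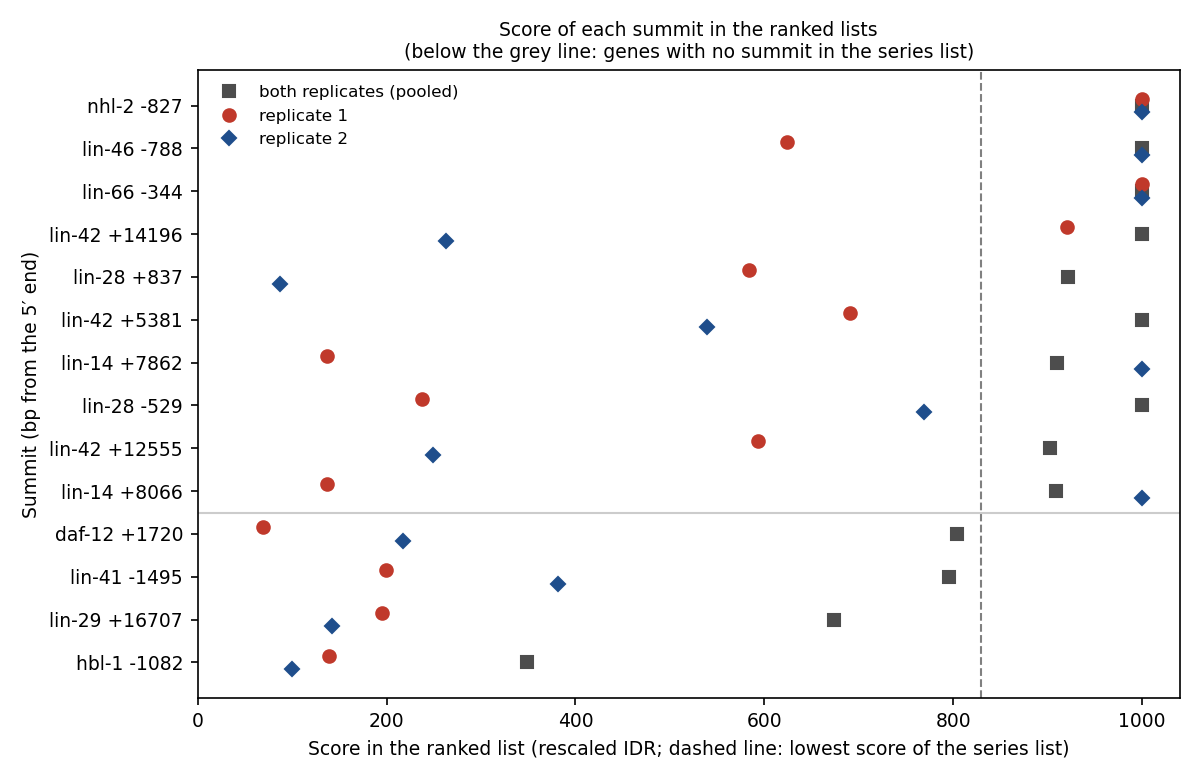
Score in the ranked lists (horizontal axis, up to 1000) of the 10 series list summits and, below the grey line, of the best pooled peak of the 4 genes without one (rows, with the distance in bp from the 5′ end), for the pooled list (squares), replicate 1 (circles) and replicate 2 (diamonds). The dashed line is the lowest series list score, 830, and both replicates lie above it only at nhl-2 and lin-66. The overlapping lin-14 peaks share the same replicate peaks.

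Over the 10 member peaks, 2 were overlapped by thresholded peaks of both replicates (20%), compared with 699 of 1815 (38.5%) over the series list. Thresholded peaks of neither replicate overlapped 4 of them (40%), compared with 30.4%. Of the 6 member peaks in the conservative list, 2 (33.3%) were overlapped by both replicates, compared with 40.2% of that list. The median signal was 90.3, compared with 105 over the series list. The 4 summits outside coding genes had a median of 142, compared with 111 for the 1064 such summits of the list, and the 5 intronic ones 89.2, compared with 108 for 546. Member summits upstream of genes therefore spanned most of the list, and those inside genes sat in its lower part. The 2 overlapping lin-14 peaks, which share the same replicate peaks, count separately in these shares and medians.

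Other genes of the pathway were read in windows made the same way, from a list chosen by known role when earlier results of these data were known. Of 22 coding genes 8 (36.4%) had a series list summit. They were 2 of 6 with windows under 10 kb, 4 of 14 with windows of 10 to 20 kb and 2 of 2 with longer ones, where 11.1%, 20.3% and 27.0% of all coding genes had one. All 8 genes of the microRNA machinery had windows under 20 kb, where the share of all coding genes was 11.1% or 20.3% by length. Of these 8, 5 had a series list summit, and no test was made. The strongest was upstream of drsh-1, which encodes the Drosha nuclease, with a signal of 317 and peaks in both replicates (186 in replicate 1 and 136 in replicate 2). That summit was 2978 bp from drsh-1 and 23 bp from cox-5B, a gene of the respiratory chain. xrn-2, an exonuclease gene, had a signal of 226 at a summit 174 bp from Y48B6A.1, and a weaker summit of 71.8 at 44 bp from its own 5′ end.

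ain-1, a GW182-type partner of the Argonaute proteins, had a summit 960 bp upstream with a signal of 169, found in both replicates (107 in replicate 1 and 60.6 in replicate 2). The Argonaute genes alg-1 and alg-2 had signals of 90.1 and 62.1. ain-2, dcr-1 and pash-1 had none, and the pash-1 window held 0 pooled ranked peaks, compared with 10 at ain-2 and 14 at dcr-1. Of the partners and upstream regulators, mab-10, whose product works with LIN-29, had a signal of 79.5 at 332 bp upstream, and sea-2 had 86.3 inside the gene. The conservative list held 3 summits in the sea-2 window, where the series list held 1. lep-2 had a summit in the conservative list but none in the series list, and pup-2 had none in either.

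In the steroid hormone branch, din-1, whose product is a corepressor partner of DAF-12, had a signal of 121. That summit was 28 bp from a snoRNA gene and nearer to the 5′ end of F07A11.5 than to that of din-1. daf-9, daf-36 and hsd-1 had no series list summit, and the daf-36 window held 0 pooled ranked peaks. None of the 6 oscillating and moulting regulators (blmp-1, dre-1, nhr-23, nhr-25, nhr-85 and kin-20) had a series list summit. Their windows all spanned 10 to 20 kb, where 20.3% of all coding genes had one. Of 5 microRNA genes 3 had one, compared with 18.8% of 261 annotated microRNA genes. The let-7 summit, 1897 bp upstream, had a signal of 134.8 and thresholded peaks in both replicates (82.9 in replicate 1 and 50.1 in replicate 2), and lay 85 bp from C05G5.2. mir-48 and mir-241 shared a summit with a signal of 89.7, and mir-241 had another of 82.1. lin-4 and mir-84 had no series list summit, though the thresholded list of replicate 1 held a peak upstream of lin-4 with a signal of 49.7. At drsh-1, xrn-2, din-1 and let-7, as at nhl-2 and lin-46, the strongest summit was nearer to the 5′ end of another gene.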

How the data were processed

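Peak lists from 2 biological replicates of whole L4 larvae were used, 7 lists in all. Per the labels they are on ce11. Per the notes deposited with the files they are IDR ranked, thresholded and conservative lists. For the peak caller, aligner, depth and use of the control, nothing is given in the sources used here. In the narrowPeak layout the deposited score is the authors' rescaled IDR, the deposited signal is the authors' caller's value, and the deposited offset gives the summit. Lists were called per replicate and over both.

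Summits were placed on the Ensembl release 115 annotation of WBcel235 (Python 3.11.15, numpy 2.4.6, pandas 2.3.3, matplotlib 3.10.9). Peaks were paired between lists by an overlap of at least 1 bp. The counting was tested on simulated data. With 1 group there is no contrast, so no test was run. The members and lists were chosen with earlier results of these data known. Named are all members with each series list summit or, failing that, the strongest and best-scored pooled ranked peaks, nearer neighbours, and other pathway genes with a summit. Other pathway genes without one were named after their values were seen.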

Additional observations from a re-analysis of the deposited data

How the results depend on the processing

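The 6 genes with a series list summit became 3 (lin-14, lin-28 and lin-42) with the gene body alone and 4 when only summits nearest to the member's own 5′ end were kept, which drops lin-46 and nhl-2. Their 10 summits became 6 in the conservative list, 6 with a score of 1000 alone and 6 with the gene body alone. The 4 genes with a summit at most 1000 bp from the 5′ end became 1 within 500 bp and 5 when any transcript 5′ end counted. For the gene body, nearest 5′ end, 500 bp and any-transcript settings, the share of all protein-coding genes was not computed. Whether the members stay above that share under these settings is therefore unknown. Leaving out 1 replicate, by using the thresholded list of the other, gave 4 genes either way, 4 to 4 summits, and 2 to 3 genes within 1000 bp. Without replicate 1 the genes were lin-14, lin-46, lin-66 and nhl-2, and without replicate 2 lin-14, lin-42, lin-66 and nhl-2. The cause of these changes was not tested beyond how each list or window is made. The peaks overlapped by both replicates were 2 of 10 with at least 50% overlap and with summits within 100 bp, and 2 of 6 in the conservative list, a share of 33.3% in place of 20%. Removing summits at small RNA genes, counting any overlap with the window, and a 2 kb upstream limit left 6 genes and 10 summits. The small RNA filter could remove none of the 10, since the nearest such gene was 10867 bp away. The 2 kb limit could drop none either, since the upstream summits lay at most 827 bp from the 5′ end. Depth is unknown, so a gene without a summit is one where none was called.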
